A study of Drosophila melanogaster with 9 samples.

Results

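Chromosome 4 is the smallest chromosome of Drosophila melanogaster, an autosome present as a pair in both sexes. All 80 protein-coding genes that the Release 6 annotation places on it were taken as members, out of 13922 protein-coding genes on X, 2L, 2R, 3L, 3R and 4. For each member the share of the gene body lying under H3K27me3 peaks, its covered percent, was measured in 6 deposited peak lists. The libraries came from chromatin immunoprecipitation and sequencing of larvae in the third instar raised at 25 °C, with chromatin fixed in 1% formaldehyde. They formed 3 groups of 2: males of genotype roX1[ex6]roX2[9-4], which lack both noncoding RNAs of the male dosage compensation complex (called knockout males here), wild-type females and wild-type males. The labels give no driver, transgene or clone, and nothing in them shows that the 2 libraries of a group stem from different animals; p-values here measure the spread between libraries, which could be technical alone. Peaks from whole larvae average over all tissues, so fewer cells with the mark and less mark per cell cannot be told apart.

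H3K27me3 is laid down by Polycomb repressive complex PRC2 over silent developmental genes, often as domains that run across a whole transcription unit and its flanks. Chromosome 4 is better known for a different silent state: most of it is packaged with the heterochromatin protein HP1a and methylated H3K9, and its genes are bound by POF, a protein specific to this chromosome. Several of its genes, among them the Pax6 homologues ey and toy, are nevertheless classical developmental regulators.

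The lists held between 4784 and 10619 peaks, of which 64 to 87 lay on chromosome 4. They carry no read counts, so depth is unknown. Where a gene has no peak, the mark was below detection in that list and may still be present. Sequence of the Y chromosome under peaks came to 166 and 167 kb in knockout males, 25.2 and 30.4 kb in females and 301 and 236 kb in wild-type males. The lists hold no expression values, so the labelled tissue was not checked. With 2 libraries in each group, the smallest p of a two-sided exact permutation test is 0.3333. Single genes were therefore tested with limma on the covered percent, fitted to the 4990 genes of the 6 arms with a peak in at least 1 library and adjusted by Benjamini-Hochberg over all of them.

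H3K27me3 on the protein-coding genes of chromosome 4 was concentrated in 6 of the 80 members, all genes for transcription factors. These were zfh2, ey, Sox102F, fd102C, toy and sv, each covered over at least 50% of its body (called marked) in at least 1 library. They made up 7.5% of the members and 10.9% of the chromosome's 1345 kb, but held 56.3% and 55.5% of its covered bases in knockout males, 49.0% and 47.7% in females and 50.1% and 51.2% in wild-type males. Another 24 members had some coverage but never reached 50%, and 50 members had no peak in any of the 6 libraries. For comparison, 4990 of all 13922 genes had a peak in at least 1 library. The number of members marked per library was 5 and 5 in knockout males, 2 and 2 in females and 6 and 6 in wild-type males. On the large autosomal arms 2L, 2R, 3L and 3R, the share of genes marked was 4.58% and 3.51% in knockout males, 7.06% and 8.81% in females and 5.75% and 5.65% in wild-type males. With the lists as deposited, females thus had the fewest marked genes on chromosome 4 and the most on the large arms. With peaks limited to −log10 q from 3, the number marked on chromosome 4 was 3 and 2 in knockout males, 1 and 2 in females and 5 and 5 in wild-type males. The share on the large arms was then 2.26% and 1.68% in knockout males, 2.14% and 2.29% in females and 3.51% and 3.54% in wild-type males, so females no longer had the most there.

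**Figure D1:**
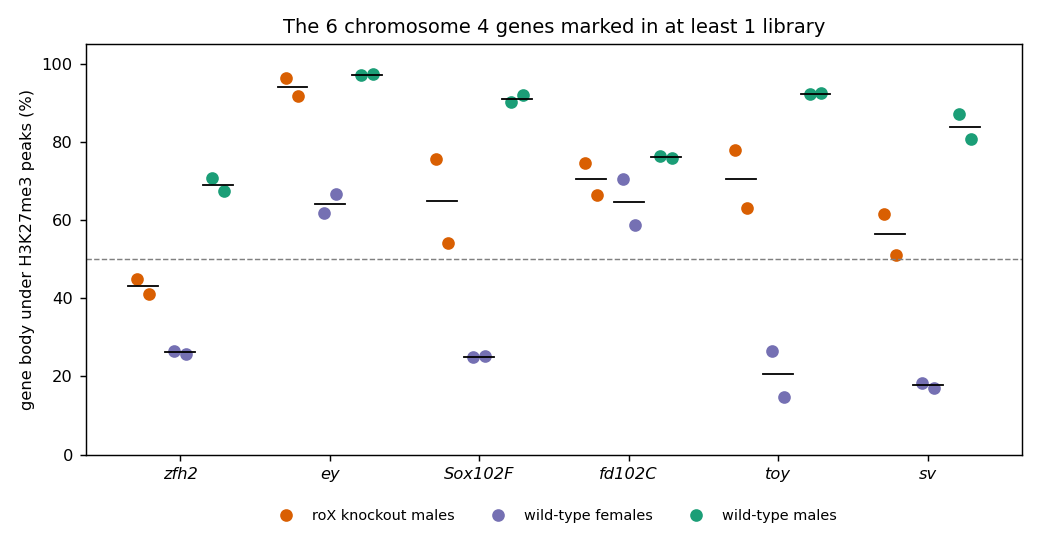
Percent of the gene body under H3K27me3 peaks (y axis) for the 6 chromosome 4 genes marked in at least 1 library, in order along the chromosome (x axis). Each point is 1 library, short bars are group means (n = 2), and the dashed line is the 50% limit. Both wild-type male points lie above all others at every gene. All 6 genes were marked in both wild-type male libraries, so their choice favours this order.

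The Pax genes showed the mark most fully in wild-type males. The Pax6 homologue toy (4, 989725 to 1007922, dm6), which acts early in the eye program, was covered over 77.9% and 63.0% in knockout males, 26.4% and 14.8% in females and 92.1% and 92.5% in wild-type males. The 3 groups did not overlap. The other Pax6 homologue, ey (4, 697689 to 721173), required for the eye and the mushroom body, had 96.4% and 91.7% in knockout males, 61.7% and 66.7% in females and 96.9% and 97.3% in wild-type males. It was the only member above 80% in all 4 male libraries and stayed marked in all 6. The Pax2 homologue sv (4, 1088798 to 1113317), which shapes bristles and the cone cells of the eye, was at 61.6% and 51.0% in knockout males, 18.4% and 17.1% in females and 87.1% and 80.6% in wild-type males. Here too the groups were separate, with knockout males in the middle. With −log10 q from 3, sv was at 10.8% and 17.4% in knockout males, 12.02% and 3.92% in females and 87.1% and 74.9% in wild-type males, so that knockout males and females overlapped.

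The other 3 marked genes encode a zinc finger homeodomain protein, a Sox protein and a forkhead protein. For zfh2 (4, 501810 to 540874), which acts in wing and leg development, coverage was 44.99% and 41.03% in knockout males, 26.6% and 25.7% in females and 70.6% and 67.3% in wild-type males. All 4 libraries outside the wild-type males fell short of the 50% limit. Sox102F (4, 800436 to 834393), the SoxD gene, had 75.6% and 54.1% in knockout males, 25.0% and 25.1% in females and 90.1% and 91.9% in wild-type males. Its knockout replicates differed more than those of any other marked gene. The forkhead gene fd102C (4, 836986 to 844529), a FoxQ2 homologue, was at 74.7% and 66.5% in knockout males, 70.4% and 58.7% in females and 76.3% and 75.8% in wild-type males. Its values in knockout males and females overlapped, and the gene was marked in all 6 libraries.

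The 50% limit passed close to few members. Just inside it lay sv at 51.0% and Sox102F at 54.1%, both in knockout replicate 2, and fd102C at 58.7% in female replicate 2. Just outside it lay zfh2 at 44.99% and 41.03% in knockout males and dati at 39.9% in wild-type male replicate 1.

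**Figure D2:**
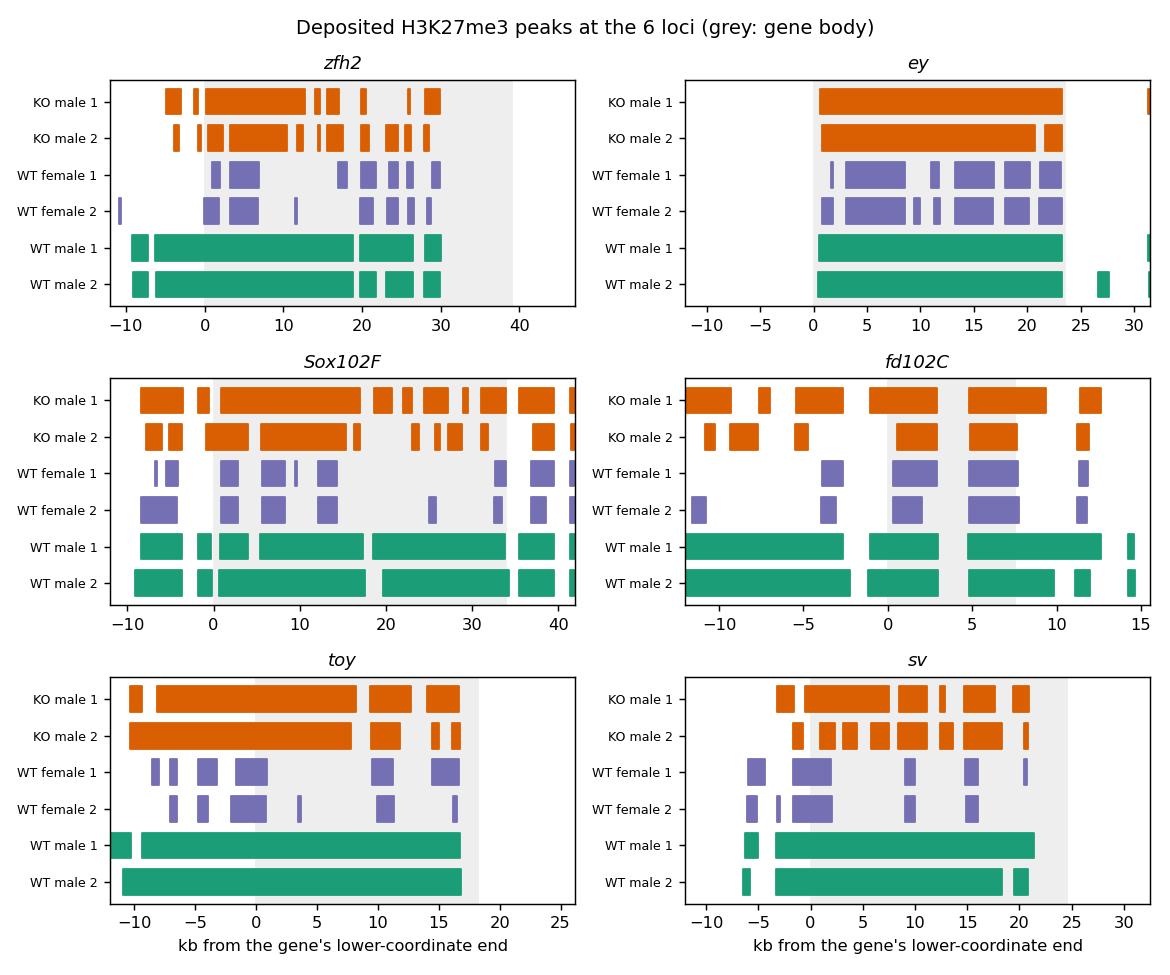
Deposited H3K27me3 peaks around the 6 marked genes, with 1 row per library and the distance in kb from the lower-coordinate end of the gene on the x axis; grey marks the gene body. At zfh2, Sox102F, toy and sv, wild-type males have the fewest breaks, knockout males more broken blocks, and females short pieces inside the same blocks. At ey the block is whole or nearly so in all males and broken in females. At fd102C 2 peaks meet the gene in every library.

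Within the same blocks, knockout males and females had more peaks in sum over these 6 genes than wild-type males. Their longest pieces were shorter by the median over the genes. Single genes differed: 2 peaks met fd102C in every library, and 1 met ey in knockout replicate 1, as in wild-type males. At Sox102F the longest piece was 16.2 kb in knockout replicate 1, against 15.4 and 16.8 kb in wild-type males. Across the 6 genes, 23 and 31 peaks met a gene body in knockout males, 27 and 28 in females and 11 and 12 in wild-type males. The longest single piece within a gene had a median over the 6 genes of 10.4 and 7.55 kb in knockout males. It was 2.72 and 2.71 kb in females and 17.8 and 17.6 kb in wild-type males. Whole lists also held more, 6327 and 6189 peaks in knockout males and 8896 and 10619 in females, against 5406 and 4784 in wild-type males. Peaks covered 13.02 and 11.4 Mb of the 6 arms in knockout males, 15.5 and 17.8 in females and 15.9 and 15.1 in wild-type males. Peak widths at other genes were not compared, so whether the pattern is particular to these genes was not tested. At toy 3 and 4 peaks met the gene in knockout males, the widest of 16.3 and 18.1 kb. In females 3 and 4 peaks met it, none wider than 2.87 kb. In wild-type males a single peak of 26.2 and 27.8 kb spanned most of the gene and its flank on the fuss side. At ey, 1 peak of 22.6 kb and 2 peaks led by 1 of 19.9 kb were found in knockout males, 6 and 7 peaks up to 5.49 kb in females, and 1 peak each of 22.8 kb in wild-type males.

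Within the 6 genes, every base shared by the 2 knockout libraries, and every base shared by the 2 female libraries, was under a peak in each wild-type male library too. These genes are largely covered in wild-type males, which by itself makes such overlap high. Of the bases covered in both female libraries, the share also covered in both knockout libraries was 100% at toy, 96.6% at ey, 92.8% at fd102C, 88.9% at Sox102F, 79.0% at sv and 69.1% at zfh2. Over the whole chromosome 4.69 kb were covered in both knockout and neither wild-type male library, against 47.5 kb with the opposite pattern. Likewise 3.6 kb were covered in both female and neither wild-type male library, against 121.7 kb with the opposite pattern. None of the bases found in the knockout or in females but not in wild-type males lay in the 6 genes.

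Stretches covered in all 6 libraries summed to 47.9 kb on the chromosome, and 74.0% of them lay in the 6 marked genes. The share of a gene covered in all 6 libraries was 57.9% at ey and 54.4% at fd102C, but 20.02% at Sox102F, 13.7% at zfh2 and 13.2% at both toy and sv. The longest were 5.46 kb in ey (4, 700736 to 706196), 3.58 kb also in ey (4, 710915 to 714498) and 3.56 kb in zfh2 (4, 505017 to 508580). Sox102F held 3 such stretches, the longest of 2.69 kb (4, 806050 to 808739). At fd102C the longest was 2.79 kb (4, 841863 to 844653), and at toy it was 2.46 kb and crossed the lower-coordinate end of the gene (4, 988083 to 990537). sv had 3 stretches of about 1 kb. The gene table used here gives no strand, so whether these stretches sit at promoters was not tested.

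By the authors' fold enrichment, the strongest of the 1 to 9 peaks meeting each of the 6 genes lay between the 89.8th and 97.9th percentile of its list in knockout males, between the 93.5th and 99.4th in females and between the 94.9th and 98.6th in wild-type males. A strongest peak is set here against single peaks, so a high rank follows in part from the choice. The median fold of all chromosome 4 peaks lay between the 45.4th and 74.9th percentile of its list. These ranks describe each list alone, since the lists differ in length.

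Setting knockout against wild-type males asks where the mark differs between males without and with the roX RNAs. The samples include no rescue, so other differences between these groups cannot be told apart from loss of the roX RNAs. Peaks covered 13.02 and 11.4 Mb of the 6 arms in knockout males and 15.9 and 15.1 Mb in wild-type males, so the knockout lists were shorter over all. On chromosome 4 all 6 marked genes had lower mean coverage in knockout males. All 6 were picked as marked somewhere and were marked in both wild-type male libraries, which alone favours lower values in other groups. Of them 1, zfh2, passed the test, and it was marked in wild-type males only. It was covered over 43.0% ± 2.80 (SD, n = 2) in knockout males and 69.0% ± 2.33 in wild-type males, a difference of -26.0 points (SE 2.24, limma adjusted p = 0.0355). That call was lost under 7 of 10 alternative settings and when any 1 of the 6 libraries was left out (limma adjusted p = 0.0608 to 0.161), and with lists of equal total length the difference was -12.2 points. The differences for sv, Sox102F and toy were about as large but did not pass. sv averaged 56.3% ± 7.51 in knockout males and 83.9% ± 4.56 in wild-type males, a difference of -27.6 points (SE 4.71, limma adjusted p = 0.159). Once peaks were limited to a −log10 q of 3 or more, its difference was -66.9 points (limma adjusted p = 0.0068). Sox102F averaged 64.9% ± 15.2 in knockout males and 91.0% ± 1.26 in wild-type males, a difference of -26.1 points (SE 7.97, limma adjusted p = 0.494). It was -36.9 points without knockout replicate 1, where it passed (limma adjusted p = 0.0207), and -15.4 without knockout replicate 2 (limma adjusted p = 0.0766). With −log10 q from 3 it was -66.2 points (limma adjusted p = 0.137).

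For toy the means were 70.4% ± 10.6 (SD, n = 2) in knockout males and 92.3% ± 0.268 in wild-type males, a difference of -21.9 points (SE 7.02, limma adjusted p = 0.539). ey and fd102C differed by -3.10 and -5.48 points (limma adjusted p = 1 for each). These values moved with single knockout libraries. Without knockout replicate 1 or 2 they were -5.46 or -0.739 at ey, -9.58 or -1.39 at fd102C and -29.4 or -14.4 at toy. With −log10 q from 3, fd102C had no peak in knockout replicate 2 and its difference was -38.7 points (limma adjusted p = 0.491), while that of ey was -6.52. Across the 30 members in the fit, limma called 1 lower and 0 higher, against 1.38% lower and 0.0802% higher of the 4990 genes in the fit. At an unadjusted limma p under 0.05, 4 members were lower and 0 higher. The share of all genes at that looser limit is not given here. By the marking rule, zfh2 alone lost the mark, with both wild-type male libraries above 50% and both knockout libraries below it. That is 1 of 80 members, or 1 of the 6 eligible, against 1.16% of all genes and 26.3% of all eligible genes. No member gained the mark, against 0.0718% of all genes. Which members lost it moved with the settings: Sox102F and sv with −log10 q from 3, none with lists of equal length or marks at 20%, and Sox102F, toy and sv with marks at 80%. The median difference over the 80 members was 0 points, as it was over all 13922 genes. Most genes of both sets had no peak in any library, which alone sets these medians at 0. Over the 4990 genes in the fit the median was also 0.

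The comparison of wild-type females with wild-type males describes how the mark differs between the sexes. Of the 6 marked genes, 5 were lower in females by limma, namely toy, sv, Sox102F, zfh2 and ey. All 6 were marked in both wild-type male libraries, so their choice favours lower values here too. The difference was -71.7 points at toy (SE 7.02, limma adjusted p = 0.0175), where females averaged 20.6% ± 8.18 (SD, n = 2) and males 92.3% ± 0.268. At sv it was -66.2 points (SE 4.71, limma adjusted p = 0.00894), with 17.7% ± 0.920 in females and 83.9% ± 4.56 in males. Sox102F differed by -65.9 points (SE 7.97, limma adjusted p = 0.0271). The smaller differences of -42.8 points at zfh2 (SE 2.24, limma adjusted p = 0.00446) and -32.9 points at ey (SE 2.77, limma adjusted p = 0.0125) also passed. fd102C had 64.5% ± 8.33 in females and 76.1% ± 0.347 in males, a difference that did not pass (-11.5 points, SE 5.38, limma adjusted p = 0.339).

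Among the 30 members in the fit, 5 were called lower and 0 higher, against 1.78% lower and 6.91% higher of the 4990 genes in the fit. At an unadjusted limma p under 0.05 the members numbered 8 and 0, with no share of all genes given at that limit. By the marking rule toy, sv, Sox102F and zfh2 lost the mark, 4 of the 6 eligible members, against 0.46% of all genes and 10.4% of those eligible, and none gained it, against 1.02% of all genes. The median difference was 0 points over the 80 members and over all 13922 genes, which the many genes with no peak set in advance. Over the 4990 genes in the fit it was 7.49 points, higher in females. A gene entered the fit by a peak in any 1 library. The female lists held the most peaks, 8896 and 10619, against 5406 and 4784 in wild-type males. This alone favours a higher female median over the genes in the fit. Leaving out either wild-type male library left only zfh2 called by limma, while the marking rule gave the same count of 4 in each case. With the replicate number as a block, 2 members were called, sv and zfh2. With no filter on genes 3 were called.

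Wild-type females were also lower than knockout males at 4 of these genes, toy, sv, ey and zfh2. Of these, only ey was marked in any female library, so the choice of genes favours lower female values again. This comparison shares its libraries with both others and is not independent of them. Differences were -49.8 points at toy (SE 7.02, limma adjusted p = 0.0343), -38.6 at sv (SE 4.71, limma adjusted p = 0.0254), -29.8 at ey (SE 2.77, limma adjusted p = 0.0138) and -16.9 at zfh2 (SE 2.24, limma adjusted p = 0.0304). Sox102F was at 25.1% ± 0.0937 (SD, n = 2) in females and 64.9% ± 15.2 in knockout males, which did not pass (-39.8 points, SE 7.97, limma adjusted p = 0.0747). fd102C differed by -6.05 points (limma adjusted p = 0.439). With −log10 q from 3 the difference at sv was -6.13 points (limma adjusted p = 0.770) and that at Sox102F -15.5 (limma adjusted p = 0.870). Limma thus called 4 members lower and 0 higher, against 0.822% and 8.4% of the 4990 genes in the fit. At an unadjusted limma p under 0.05 the members numbered 6 and 1, again with no share of all genes at that limit. toy, sv and Sox102F lost the mark, 3 of the 5 members marked in both knockout libraries, against 0.108% of all genes and 4.2% of those eligible, and no member gained it, against 1.67% of all genes. None of the 4 limma calls held with the 4 libraries fitted alone or with the replicate block (0 called lower, with 7 and 6 at an unadjusted p under 0.05). Without knockout replicate 1, Sox102F alone was called, and without either wild-type male library none was.

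**Figure D3:**
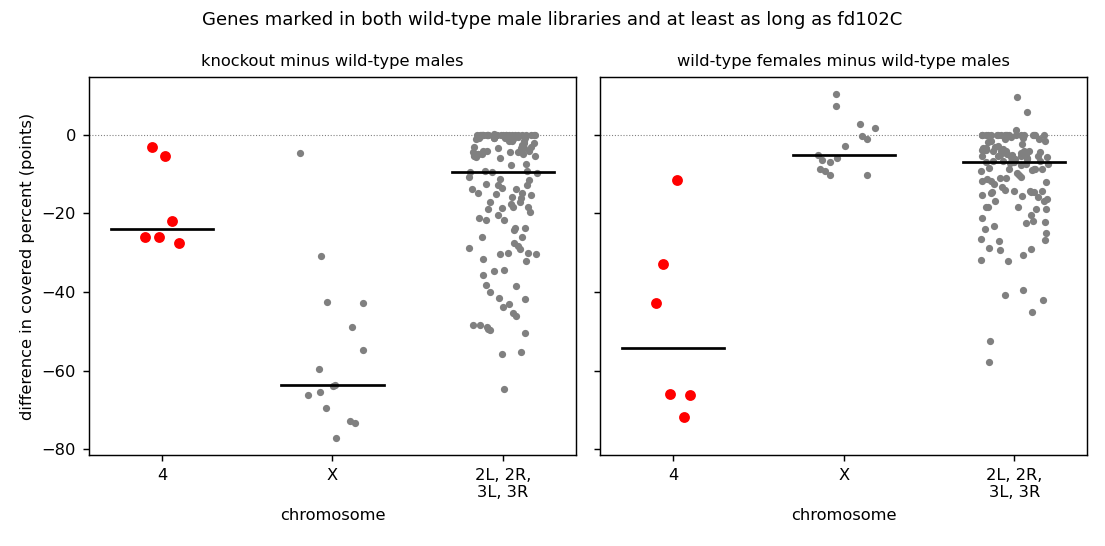
Difference in covered percent (y axis, percentage points) for knockout minus wild-type males (left) and wild-type females minus wild-type males (right), for every gene marked in wild-type males 1 and 2 and at least as long as fd102C, by chromosome. Red points are the 6 chromosome 4 genes, grey points other genes and bars medians; the female differences of toy, sv and Sox102F lie below all 131 genes of the large arms.

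Marked genes elsewhere gave a scale for these differences. The large autosomal arms had 131 genes at least as long as fd102C (7.54 kb) that were marked in both wild-type male libraries, and X had 15. The median difference between knockout and wild-type males was -23.9 points for the 6 genes of chromosome 4, against -9.45 points for these genes on the large arms and -63.6 on X. As low a difference as that of sv was found at 30 of the 131 genes, and as low as that of ey at 89. Between females and wild-type males the medians were -54.4 points on chromosome 4, against -6.87 points on the large arms and -5.02 on X. None of the 131 genes was as low in this comparison as toy, sv or Sox102F, while 3 were as low as zfh2, 6 as low as ey and 47 as low as fd102C. With marked genes of any length, 558 on the large arms, their medians were -17.7 points for knockout males and -8.50 for females. As low as sv were then 221 of them in knockout males and 24 in females, and as low as toy and Sox102F in females were 15 and 24. All these genes were picked for being high in wild-type males, which alone favours negative differences. These are counts of genes in 6 libraries, with no test of the difference between chromosomes.

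**Figure D4:**
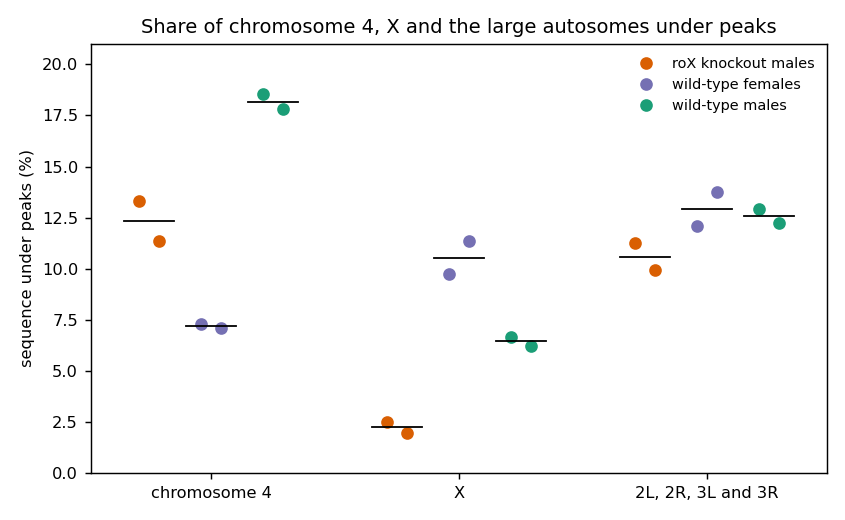
Percent of chromosome 4, of X and of arms 2L, 2R, 3L and 3R together under H3K27me3 peaks (y axis), with 1 point per library and bars for group means (n = 2). On chromosome 4 the 3 groups are separate, with females lowest and wild-type males highest.

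The share of the whole chromosome under peaks followed the same order. It was 13.3% and 11.4% in knockout males, 7.28% and 7.10% in females and 18.5% and 17.8% in wild-type males. The gap between knockout and wild-type males was 4.52 points and that between females and wild-type males 10.5 points, against at most 1.94 and 0.702 points between replicates of the groups compared (exact permutation p = 0.3333 for each, two-sided, the smallest possible). The gap between females and knockout males was 4.09 points (p = 0.3333 by the same exact test). With lists of equal length the difference between the means of knockout and wild-type males was -2.93 points, against -5.84 with the lists as deposited, and with −log10 q from 3 that between females and knockout males was -2.63, against -5.15. Set against the large autosomal arms of the same library, the log2 ratio of covered shares was 0.22 ± 0.03 (SD, n = 2) in knockout males, -0.84 ± 0.16 in females and 0.53 ± 0.02 in wild-type males. Chromosome 4 was thus covered more than the large arms in every male library and less in both female libraries. Peaks wider than 5 kb held 42.3% and 36.1% of its covered bases in knockout males, 5.61% and 14.1% in females and 59.1% and 66.2% in wild-type males. As 1 unit, the 6 marked genes were covered over 63.3% ± 7.66 of their length in knockout males, 31.9% ± 1.19 in females and 84.3% ± 1.04 in wild-type males. Their choice as marked, which all 6 were in wild-type males, favours this order.

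**Figure D5:**
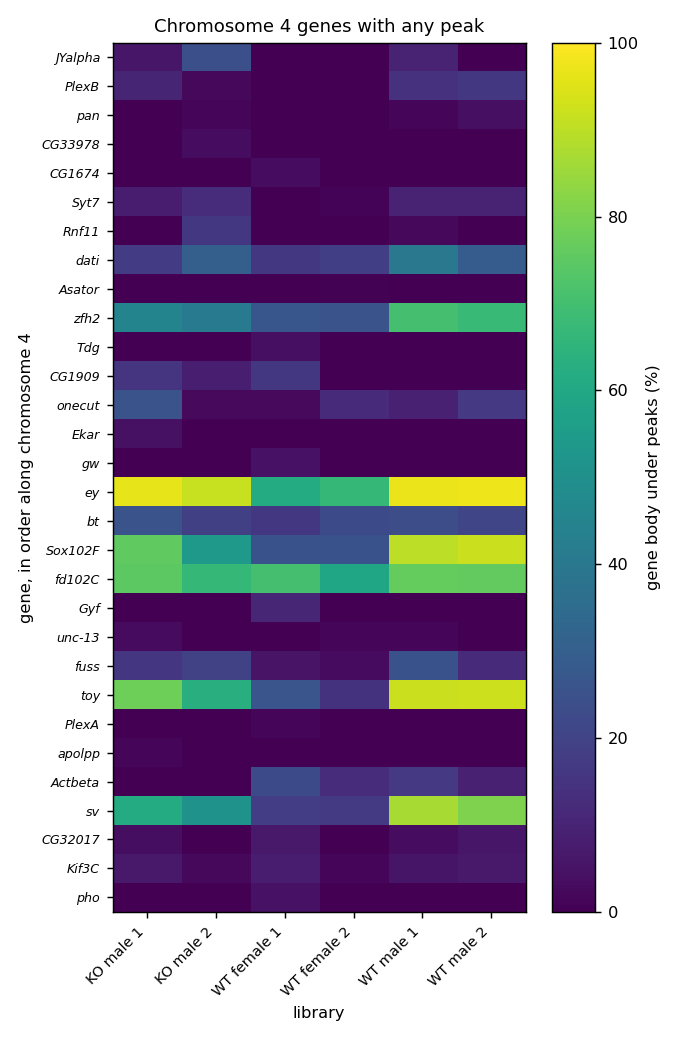
Percent of the gene body under H3K27me3 peaks (colour, 0 to 100) for the 30 chromosome 4 genes with a peak in at least 1 library, in order along the chromosome (rows), in each of the 6 libraries (columns). The 6 marked genes stand out, and the other 24 stay under 50%.

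The other 24 genes with any coverage were low and mostly irregular, and none of them was called in any of the 3 comparisons. Coverage stayed at or under 10% in all libraries for 13 of them, and 10 were covered in a single library. Only dati, onecut, bt, fuss and Kif3C had a peak in all 6 libraries. The zinc finger gene dati (4, 375640 to 395605), which acts in neurons, was covered over 17.3% and 30.2% in knockout males, 16.0% and 18.7% in females and 39.9% and 29.2% in wild-type males. Its knockout values overlapped those of wild-type males. bt, the gene of the giant muscle protein projectin and the longest member at 52.1 kb, was at 25.7% and 19.1% in knockout males, 16.1% and 22.3% in females and 23.6% and 20.9% in wild-type males, with all groups overlapping. The Ski family corepressor gene fuss, next to toy, had 15.9% and 19.3% in knockout males, 5.10% and 2.82% in females and 25.1% and 12.2% in wild-type males. For onecut, a cut-homeobox gene of neurons, values ran from 2.57% to 25.6% with no separation of groups.

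A few of the 24 were covered in some groups and not in others. PlexB, the gene of a semaphorin receptor, had 10.3% and 2.02% in knockout males, 0% in both female libraries and 14.4% and 16.3% in wild-type males. The difference between females and wild-type males was -15.4 points (limma adjusted p = 0.0883). The synaptotagmin gene Syt7 was at 8.18% and 12.6% in knockout males, 0% and 0.968% in females and 9.45% and 9.76% in wild-type males, and its female difference from wild-type males was -9.12 points (limma adjusted p = 0.0937). Actbeta, an activin ligand gene next to sv, was at 0% in both knockout libraries, 22.3% and 12.7% in females and 16.4% and 9.04% in wild-type males. CG1909, of no role given here, had 14.9% and 8.36% in knockout males, 16.3% and 0% in females and 0% in both wild-type male libraries. With limma on the arcsine square root of the covered fraction, PlexB and Syt7 were called lower in females than in wild-type males. In females against knockout males, Syt7 was called lower and Actbeta higher on that scale. PlexB was also called lower in females than in wild-type males with genes limited to those covered over at least 10% in 2 libraries, and without knockout replicate 2.

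By role, all 6 marked genes were in 1 of 4 lists that hold 52 of the 80 members. The lists were chosen with earlier results of these data known, so this outcome may follow from how they were drawn. The list names are loose. Some members do not match them strictly, such as Gyf under transcription and chromatin, Crk under ligands and receptors, and apolpp and yellow-h under housekeeping. Of 20 genes for transcription and chromatin, 12 had a peak somewhere and 6 were marked. The 8 with no peak in any library included ci, the effector of Hedgehog signalling, as well as Hcf, lgs and Mitf. pan, the TCF of Wnt signalling, reached at most 4.29%, and pho, which encodes a DNA-binding recruiter of Polycomb complexes, had 4.93% in female replicate 1 and 0% elsewhere. Of the 12 in the fit, limma called 1 lower in knockout than in wild-type males, against 1.38% of all 4990 genes in the fit. It called 5 lower in females than in wild-type males, against 1.78%, and 4 lower in females than in knockout males, against 0.822%. It called none higher. These are the calls already given above for all members in the fit, counted here over fewer genes. The median difference over all 20 was 0, -1.46 and -0.332 points in these comparisons. Over all genes it was 0 in each, set by the many genes with no peak. Over the 4990 genes in the fit it was 0, 7.49 and 9.37 points. A peak in any 1 library brought a gene into the fit, and the female lists held the most peaks. That alone favours the positive values for females.

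Of 9 genes for signalling ligands and receptors, 3 had a peak, of 9 neuronal genes also 3, and of 14 for housekeeping and structure 5, and none of these was marked or called. RpS3A and ATPsynbeta, for a ribosomal protein and a mitochondrial ATP synthase subunit, had no peak in any library, nor did eIF4G1 or ND-49. Among the 28 members on no list, 7 had a peak and none was marked. Of all 13922 genes, 4990 had a peak in at least 1 library. The lists were not tested against that share.

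Length alone did not separate the marked genes. Their median length was 24.0 kb, against 10.1 kb for all 80 members. Of the 13 members of at least 20 kb, 4 were marked. The other 9, which include pan (44.9 kb), the synaptic gene unc-13 (44.5 kb), Cadps (40.9 kb), PMCA (30.7 kb) and Mitf (25.6 kb), never exceeded 25.7%.

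The genes next to the marked ones ranged from no coverage to being marked themselves. Sox102F and fd102C, both marked, are neighbours 2.59 kb apart. bt, 3.23 kb from ey, had 16.1% to 25.7%, fuss up to 25.1%, Actbeta, 4.00 kb from sv, up to 22.3% and Gyf, 9.03 kb from fd102C, up to 10.7%. The others were at or near 0. myo, the gene of the TGF-β family ligand myoglianin, lies 1.63 kb from ey and had no peak in any library. PlexA lies 1.97 kb from toy and had at most 1.28%. Cals overlaps sv at its end and was at 0% throughout, and Tdg, which overlaps zfh2 by 2.54 kb, reached at most 3.97%. On the lower-coordinate side, the first peak meeting ey and Sox102F began inside the gene in wild-type males, by 0.511 and 0.429 kb and by 0.772 and 0.689 kb. Separate wild-type male peaks lay before Sox102F, the nearest ending at -0.267 and -0.231 kb from its first base. The first peaks meeting zfh2, toy, sv and fd102C began before the gene. Their first edge minus the gene's first base was -6.32 and -6.19 kb at zfh2, -9.39 and -11.0 kb at toy, -3.32 and -3.29 kb at sv and -1.05 and -1.15 kb at fd102C. The 11.5 kb between MED26 and Sox102F was covered over 44.4% ± 11.9 (SD, n = 2) in knockout males, 25.0% ± 15.0 in females and 58.1% ± 4.44 in wild-type males. The 11.2 kb between fuss and toy was covered over 86.6% ± 7.68 (SD, n = 2) in knockout males, 34.7% ± 5.85 in females and 94.8% ± 4.14 in wild-type males. The 12.8 kb between Asator and zfh2 was covered over 13.5% ± 7.79 in knockout males, 2.72% ± 3.85 in females and 63.6% ± 1.62 in wild-type males. The flank of toy in knockout males thus overlapped with wild-type males while that of zfh2 did not.

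Of the 3 longest unbroken stretches covered in the 2 wild-type male libraries but in no female library, 2 lay inside marked genes and the other beside one. They were 6.99 kb in sv (4, 1090813 to 1097801), 6.81 kb in Sox102F (4, 826225 to 833031) and 6.09 kb between Asator and zfh2 (4, 495620 to 501708), ending just before zfh2. The 3 longest against knockout males were shorter and all lay beyond the last gene, Cadps, at 3.27 kb (4, 1290168 to 1293438), 2.75 kb (4, 1310210 to 1312959) and 2.58 kb (4, 1322708 to 1325286). The 3 longest covered in each knockout library and in no female one were 4.14 kb in toy (4, 993397 to 997535), 3.6 kb in zfh2 (4, 508659 to 512262) and 2.59 kb in toy (4, 990572 to 993161).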

How the data were processed

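Per the submitters' processing notes, the authors used genome build dm6 with Bowtie2 2.4.5, Trimmomatic 0.39, deepTools 3.5.1, SAMtools 1.13 and Picard. How peaks were called, and whether the 3 inputs served as background, is not given in the sources used here. The 6 deposited lists are broad peaks, 1 list per library, with the authors' display score, fold enrichment (a ratio), −log10 p and −log10 q per peak. Every deposited −log10 q was at least 1. The inputs were not used here.

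Peaks were merged, and the covered percent of each gene body was computed with the Release 6 RefSeq gene table (same coordinates as dm6, no strand). No sequence was printed, as no sequence table was used here. Limma 3.58.1 (R 4.3.3) was fitted to the 3 groups together, without a block, on genes with a peak in at least 1 library, with 3.74 total degrees of freedom and a threshold of adjusted p of 0.05. A covered percent is bounded and has many values of 0, which limma does not model. Genes of 1 domain are not independent. Lost means marked (at least 50%) in both libraries of the second group and in neither of the first. The chromosome's length was taken as its last annotated or covered base. The scripts were tested on simulated data. Named with values were members marked or called, those near the limit and members of 4 role lists, all 52 of whose symbols were found; CG1909, Kif3C and JYalpha were chosen after their values were seen. Members, lists and tests were chosen with earlier results of these data known. Alternatives were stricter peaks (−log10 q from 3, or fold from 1.5), bridging of 1 kb gaps, lists cut to equal length, other limits of marking, other fits and each library left out.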

Additional observations from a re-analysis of the deposited data

How the results depend on the processing

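The direction of all 18 differences of the 6 marked genes held under every alternative but 1. The exception was fd102C in females minus knockout males, at 9.95 points when peaks were limited to −log10 q of at least 3. The replicate block, the 4 libraries alone, the variance trend and the gene filters leave a difference as it is. So does leaving out a library of the third group. These settings could not change a direction. Of 288 alternative values for them, 62 lost and 6 gained the call. For knockout minus wild-type males, 0 members were lower with lists of equal length, the replicate block, the 4 libraries alone, the arcsine scale, a variance trend or no filter (limma, 2 to 5 at an unadjusted p under 0.05), and 0 to 1 without 1 library. The count of lost members became 2 with −log10 q of at least 3, 0 with equal lists or marks at 20%, and 3 with marks at 80%. For females minus wild-type males, 2 were lower with the replicate block, 3 with no filter and 1 to 6 without 1 library, and 2 lost the mark with marks at 20%. For females minus knockout males, 2 were lower with −log10 q of at least 3 or equal lists, 1 with no filter, 0 with the block or the 4 libraries alone (6 and 7 at an unadjusted p), and 0 to 4 without 1 library; 1 lost the mark with −log10 q of at least 3 or with marks at 20% or 80%. Without female replicate 2, 4 members were lower and 6 higher than in wild-type males, and 1 lower and 6 higher than in knockout males; the 6 (CG1674, Gyf, PlexA, Tdg, gw and pho) were at 0 in all 4 male libraries, and a lone female library is then assumed to vary like these. Without female replicate 1 the same held for 1 gene, Asator (0.495 points higher).

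The difference in the share of chromosome 4 under peaks was -7.74 points with −log10 q of at least 3 and -2.93 with equal lists for knockout minus wild-type males, -10.4 and -8.40 for females minus wild-type males, and -2.63 with −log10 q of at least 3 for females minus knockout males. Over all genes, with every library kept, the count called lower ran from 22 to 168 (69 as reported), 20 to 153 (89) and 7 to 60 (41) in the 3 comparisons in this order, and the count called higher from 2 to 28 (4), 14 to 740 (345) and 47 to 813 (419). Same-numbered libraries did not deviate together in covered percent (correlations of -0.035, -0.0066 and 0.020 over 4990 genes). The labels do not say whether they were prepared together, and these correlations cannot decide it. The cause of calls lost under the block was not tested. Depth is unknown, so the limit it sets on weak peaks could not be measured.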

Other observations

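Part of the mark on chromosome 4 lay outside protein-coding genes, over 26.97% and 25.5% of its covered bases in knockout males, 29.6% and 32.0% in females and 36.2% and 36.8% in wild-type males. The 73.1 kb beyond the last gene, Cadps (4, 1271760 to 1344810), was covered over 7.89% ± 2.57 (SD, n = 2) in knockout males, 14.5% ± 1.91 in females and 41.7% ± 2.58 in wild-type males. Here knockout males were the lowest group, unlike at the 6 marked genes, and the groups did not overlap. One stretch of 2.4 kb in it (4, 1316194 to 1318592) was covered in all 6 libraries. At the other end, the 27.4 kb between JYalpha and PlexB (4, 5040 to 32477) was covered over 25.0% and 14.8% in knockout males, 0% in both female libraries and 21.7% and 13.6% in wild-type males. It holds 3 pseudogenes. In the 41.4 kb between dati and lgs (4, 395606 to 436956), coverage was 23.8% ± 7.84 in knockout males, 15.4% ± 3.68 in females and 37.9% ± 6.13 in wild-type males. These stretches were chosen after their values were seen and no test was made.

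Among noncoding genes, lncRNA:sphinx, which overlaps fuss, was covered over 53.3% and 20.3% in knockout males, 0% in both female libraries and 42.8% and 21.8% in wild-type males. lncRNA:CR45123 (4, 851174 to 851624), between fd102C and Gyf, was at 0% in both knockout and both female libraries and at 73.4% and 93.8% in wild-type males. At 0.451 kb it is shorter than most peaks, so a single peak can set its value.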
